A study of Mus musculus with 2 samples.

Results

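The genes described here are the Wnt ligands, their Frizzled receptors and LRP co-receptors, and the secreted inhibitors of the Sfrp and Dkk families. They were chosen by symbol, which gave 39 of the 55536 annotated genes: 19 Wnt genes, 10 Frizzled genes (Fzd), Lrp5 and Lrp6, 4 secreted frizzled-related proteins (Sfrp1, Sfrp2, Sfrp4 and Sfrp5) and 4 Dickkopf genes (Dkk). Frzb, a further member of the Sfrp family, carries another symbol and is given with the other pathway genes. Total RNA, reduced in ribosomal RNA, was sequenced from heart tissue of male B6CASTF1/J mice, the first-generation hybrid of a B6 and a wild-derived CAST parent, at 10 days of age. The animals carried no engineered allele or treatment named in the labels. The single group holds 2 libraries, named below by their biological replicate number: replicate 1, with 38851514 expected counts, and replicate 2, with 37907585. The males are numbered separately in the labels but share a donor record, and the spread given below is therefore that between these 2 samples, which may be technical. With 1 group, no test between conditions was possible and no p-value is given.

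The tissue label was checked against cell markers. All 6 cardiomyocyte markers were present, with the cardiac myosin Myh6 at 8595 TPM in replicate 1 and 8333 TPM in replicate 2 (TPM, a level scaled for transcript length and for library depth). The libraries differed in markers of other cells. Summed over the 6 atrial markers the level was 1505 and 269.7 TPM, over the 7 adipocyte markers 386 and 30.8 TPM, and over the 8 Schwann cell and neuronal markers 19.8 and 3.92 TPM.

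Wnt proteins are secreted, lipid-modified signals that act over short distances. On a receiving cell a Wnt binds a Frizzled, a receptor that crosses the membrane several times, and in the canonical branch also Lrp5 or Lrp6. Together they stop the destruction of beta-catenin, which then enters the nucleus and acts with TCF and LEF factors. Other Wnts, such as Wnt5a and Wnt11, signal mainly without beta-catenin. Sfrp proteins resemble the outer domain of Frizzled and bind Wnts outside the cell, whereas Dkk1, Dkk2 and Dkk4 bind the LRP co-receptors. In the heart the pathway is best known for its part in cardiac specification, outflow tract and valve formation.

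Receptors and co-receptors were present at moderate levels, while most ligand genes were at or near 0. At least 1 TPM in both libraries was found for 16 of the 39 genes. By the same rule 52.4% of the 22028 protein-coding genes and 22.9% of all annotated genes were detected, and all 39 members are protein-coding. Detection was uneven across roles: 8 of 10 Frizzled genes, both LRP genes, 2 of 4 Sfrp genes, 1 of 4 Dkk genes and 3 of 19 Wnt genes passed. Of the 23 others, 14 had over 3 counts in at least 1 library, 5 had between 1 and 3 counts at most, and 4 had 0 counts in both. In bulk RNA, fewer cells of a type and less RNA per cell cannot be told apart.

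**Figure D1:**
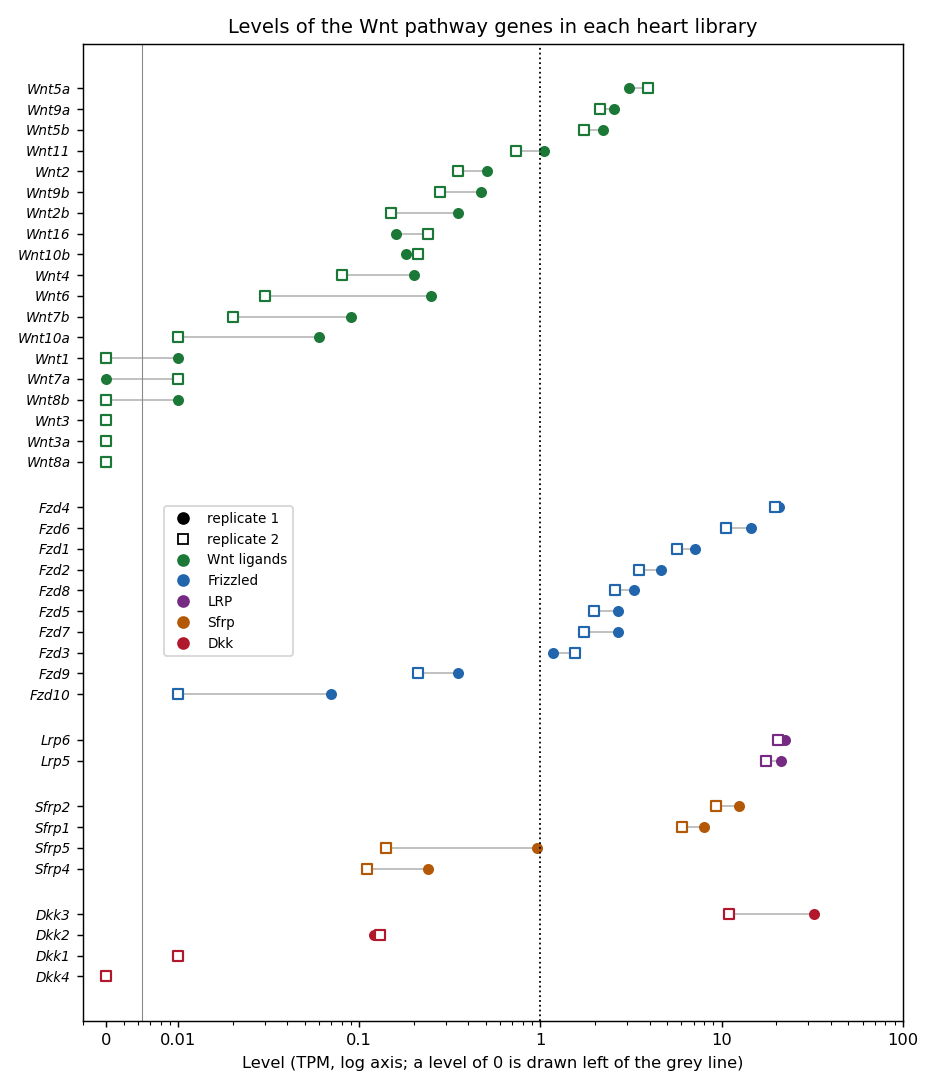
Level in TPM (log axis) of each of the 39 genes, grouped by class, in replicate 1 (filled circles) and replicate 2 (open squares, which hide a circle of the same value). The dotted line marks 1 TPM; Lrp5, Lrp6, Fzd4, Fzd6 and Dkk3 lay above 10 TPM in both libraries, and most Wnt genes lay below 1 TPM.

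As a sum over the class, Frizzled genes reached 57.2 TPM in replicate 1 and 47.6 TPM in replicate 2, and the 2 LRP genes 43.5 and 38.1 TPM. The 19 Wnt genes together amounted to 11.2 and 9.90 TPM, less than the level of Fzd4 or of Lrp6 alone in either library. Sfrp genes summed to 21.7 and 15.6 TPM, and Dkk genes to 32.3 and 11.1 TPM, nearly all of it Dkk3. The receptors and co-receptors made up most of the summed level in both. Of that sum, Frizzled genes held 36.7% ± 3.14 (SD, n = 2), LRP genes 28.7% ± 3.49, Dkk genes 14.3% ± 7.36, Sfrp genes 12.9% ± 0.229 and Wnt genes 7.41% ± 0.966. The Dkk share was 19.5% in replicate 1 and 9.06% in replicate 2, and was the most variable of the 5.

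**Figure D2:**
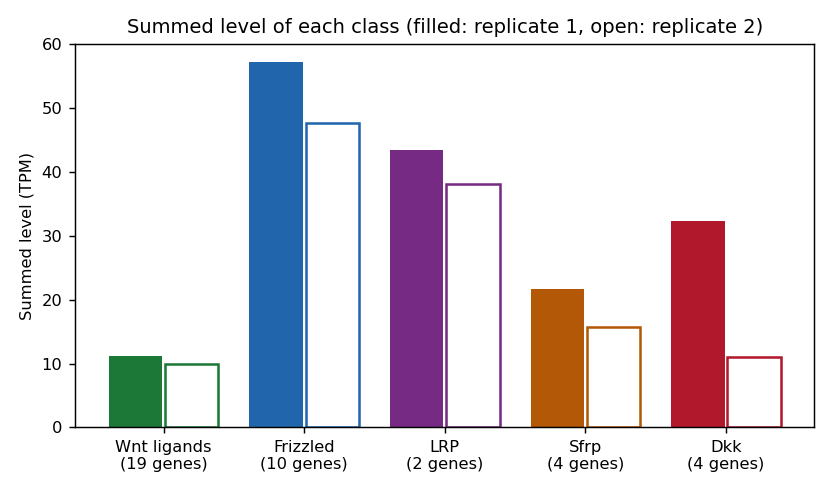
Summed level in TPM of each class in replicate 1 (filled bars) and replicate 2 (open bars), with the number of genes below each pair. Frizzled genes were highest in both libraries, and the Dkk bars differed most, at 32.3 and 11.1 TPM.

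Among the ligands, Wnt5a, Wnt9a and Wnt5b were detected. Wnt5a, a ligand of the beta-catenin independent branch, had 482 and 466 counts and a level of 3.07 TPM in replicate 1 and 3.91 TPM in replicate 2. Wnt9a, a ligand known from joints and from the developing heart valves, had 246 and 221 counts and 2.53 and 2.14 TPM. Wnt5b, the close relative of Wnt5a, had 151 and 125 counts and 2.21 and 1.74 TPM. Over all annotated transcripts Wnt5a was the highest ligand in both libraries, and the ranges of Wnt9a and Wnt5b overlapped. On protein-coding transcripts alone this rank was lost, with Wnt5a at 2.52 and 2.07 TPM and Wnt9a at 2.53 and 2.14 TPM. The loss depended on the quantification. In a second deposited quantification, the coding Wnt5a-201 (1.82 and 1.94 TPM) and Wnt5a-202 (1.48 and 1.46 TPM) together exceeded Wnt9a (3.05 and 2.85 TPM).

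The other Wnt genes stayed below 1 TPM in at least 1 library. Wnt11, a ligand required in the outflow tract, was nearest to that level, with 49 and 26 counts and 1.05 and 0.73 TPM. Wnt2, which acts in cardiac progenitors, had 33 and 24 counts, and Wnt9b, which is made by the endocardium of the valves, had 63 and 39. Wnt2b had 34 and 15 counts, Wnt4 25 and 11, Wnt6 11 and 2, and Wnt7b 8 and 2. Wnt10b had 13 and 15 counts and Wnt16 had 8 and 9. All 9 of these genes thus gave reads in both libraries, at mean levels from 0.055 TPM (Wnt7b) to 0.89 TPM (Wnt11).

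Wnt1, Wnt7a and Wnt8b were each seen with a single count in only 1 of the libraries, and Wnt10a with 1 count in both. Wnt3, Wnt3a and Wnt8a had 0 counts. A count of 0 allows up to 3 counts, which equals 0.0772 CPM (the count scaled to the library total) in replicate 1 and 0.0791 CPM in replicate 2. At this depth Wnt3, Wnt8a and the classical canonical ligand Wnt3a were not detectable above that limit.

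Several Wnt genes lie side by side in the genome, and in 3 of 4 such pairs the neighbours differed in their counts beyond counting error. On chromosome 11, Wnt3a (59248033 to 59290752, minus strand) and Wnt9a (59306928 to 59333552, plus strand) are arranged head to head, with 16175 bases between them in mm10. Wnt9a had 246 and 221 counts there, and Wnt3a had 0 in both libraries. Wnt9b (103727364 to 103749821, minus strand) and Wnt3 (103774150 to 103817957, plus strand) form a second head-to-head pair on the same chromosome, 24328 bases apart, with 63 and 39 counts for Wnt9b and 0 for Wnt3. On chromosome 15, Wnt10b (98770712 to 98778150) had 13 and 15 counts and its divergent neighbour Wnt1 (98789857 to 98793837), 11706 bases away, had 1 and 0. Wnt6 and Wnt10a lie in tandem on chromosome 1, 6193 bases apart, with 11 and 2 counts against 1 and 1. In the first 3 pairs the counts of the neighbours did not overlap. The counts of Wnt6 and Wnt10a did not overlap either, but their intervals did. That of Wnt6 was 5.49 to 19.7 counts in replicate 1 and 0.24 to 7.22 in replicate 2. That of Wnt10a was 0.03 to 5.57 in both. Their levels also overlapped, at 0.25 and 0.03 TPM for Wnt6 and 0.06 and 0.01 TPM for Wnt10a.

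The promoters of the first pair are shown because these neighbours had the widest gap in counts. Each is the stretch of 250 bases before the RefSeq start on build GRCm38.p6, 5′ to 3′ on the gene's strand, with CpG dinucleotides in capitals. The Wnt9a stretch is chr11:59306680-59306929, plus strand, and the Wnt3a stretch is chr11:59290752-59291001, minus strand.
Wnt9a: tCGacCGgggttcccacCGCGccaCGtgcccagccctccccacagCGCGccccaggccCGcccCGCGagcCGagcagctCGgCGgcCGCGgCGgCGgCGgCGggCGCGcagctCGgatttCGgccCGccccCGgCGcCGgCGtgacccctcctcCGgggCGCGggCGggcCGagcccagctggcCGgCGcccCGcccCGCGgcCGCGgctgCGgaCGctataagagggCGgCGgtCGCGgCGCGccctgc
Wnt3a: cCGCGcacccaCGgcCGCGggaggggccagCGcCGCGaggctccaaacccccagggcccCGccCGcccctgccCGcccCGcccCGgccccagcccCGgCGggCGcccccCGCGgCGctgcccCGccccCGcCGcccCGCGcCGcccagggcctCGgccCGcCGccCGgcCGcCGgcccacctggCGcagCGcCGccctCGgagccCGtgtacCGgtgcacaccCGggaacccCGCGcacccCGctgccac
Both were dense in CpG, with 48 CpG and a G and C content of 84.4% for Wnt9a, and 41 CpG and 87.6% for Wnt3a. The Wnt9a start was that of the only Wnt9a transcript to which counts were assigned, Wnt9a-202. Wnt9a-201 is almost the same length (3320 against 3318 bases), so the assignment does not establish the start in use.

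Among the receptors, Fzd4 stood first. Fzd4, which also serves as the receptor of Norrin in vascular endothelium, had 4124 and 4192 counts and a level of 20.6 TPM in replicate 1 and 19.8 TPM in replicate 2. Fzd6 followed with 1116 and 928 counts and 14.6 and 10.6 TPM, Fzd1 with 878 and 744 counts and 7.09 and 5.67 TPM, and Fzd2 with 500 and 400 counts and 4.64 and 3.50 TPM. These 4 kept the same order in both libraries, and their ranges did not overlap each other, except that Fzd6 overlapped Fzd1 on protein-coding transcripts alone (8.17 and 6.38 TPM). Fzd8 was at 3.27 and 2.57 TPM, Fzd5 at 2.68 and 1.98 TPM, Fzd7 at 2.68 and 1.75 TPM, and Fzd3 at 1.18 and 1.55 TPM. The ranges of Fzd8, Fzd5 and Fzd7 overlapped, so their order was not resolved, and Fzd3 lay below all 3. Fzd9, with 23 and 15 counts, and Fzd10, with 7 and 1 counts, were below 0.4 TPM in both libraries.

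Over all annotated transcripts, the ranges of both co-receptors overlapped that of Fzd4. Lrp6 had 4827 and 4737 counts and 22.3 TPM in replicate 1 and 20.6 TPM in replicate 2. Lrp5 had 3047 and 2714 counts and 21.1 and 17.5 TPM. Their ranges overlapped, so in these values the level of neither exceeded that of the other beyond the spread. In the second quantification the ranges did not overlap, with Lrp6 at 27.0 and 25.3 TPM and Lrp5 at 23.0 and 21.5 TPM. Fzd4, at 23.7 and 24.7 TPM there, lay between them. On protein-coding transcripts of the first quantification, Lrp6 was at 18.85 and 18.09 TPM and Lrp5 at 18.61 and 16.05 TPM. Both then lay below Fzd4.

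The inhibitors were led by Dkk3, a divergent member of the Dickkopf family, but its level differed between the libraries. Dkk3 had 3170 and 1144 counts and a level of 32.2 TPM in replicate 1 and 11.0 TPM in replicate 2. It was thus the highest of the 39 genes in replicate 1 and ranked behind Lrp6, Fzd4 and Lrp5 in replicate 2. The LRP-binding Dickkopf genes were scarce: Dkk2 had 13 and 15 counts, Dkk1 had 1 in each library and Dkk4 had 0. Of the Sfrp genes, Sfrp2, which is made by fibroblasts and also takes part in collagen processing, had 720 and 568 counts and 12.5 and 9.31 TPM. Sfrp1 had 1036 and 832 counts and 8.02 and 6.08 TPM. Sfrp5, known from the early sinus venosus and from fat tissue, had 52 and 8 counts and 0.96 and 0.14 TPM, and Sfrp4 had 12 and 5 counts.

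In the order of mean level over all 16 detected genes, 10 of the 15 neighbouring pairs overlapped in range. The pairs that did not overlap were Lrp5 and Fzd6, Sfrp2 and Sfrp1, Fzd1 and Fzd2, Fzd8 and Wnt9a, and Wnt5b and Fzd3. The gap below Fzd8 held for Wnt9a alone, since Fzd8 overlapped Fzd5 and Fzd7, which ranked lower. The leading block of Dkk3, Lrp6, Fzd4 and Lrp5 was therefore separate from Fzd6, except that Dkk3 in replicate 2 (11.0 TPM) lay within the range of Fzd6. Wnt5a, the highest ligand when noncoding transcripts are counted, stood at 3.49 ± 0.594 TPM (SD, n = 2), and its range overlapped those of Fzd2 and Fzd8.

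Some of these levels depended on short annotated transcripts that are not protein-coding. Of the 16 genes, 7 have a single annotated transcript, among them Dkk3, Fzd4 and Sfrp1, and their level has no such split. For Fzd6, transcripts annotated as a retained intron or as targets of nonsense-mediated decay received 9.83% and 8.68% of the counts but 44.0% and 39.9% of the TPM, since they are short. Its coding transcripts alone were at 8.17 and 6.38 TPM, below Sfrp2 in both libraries. Fzd6 was also the only detected gene whose leading transcript held under 50% of the TPM, with Fzd6-202 at a mean share of 30.9%. The leading transcript of Fzd6 was Fzd6-201 in replicate 1 (35.2%) and Fzd6-202 in replicate 2 (41.0%).

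In the first quantification, used for the levels here, the rise of Wnt5a in TPM had the same form. The noncoding transcript Wnt5a-204, of 337 bases, received 0 counts in replicate 1 and 6.79 counts in replicate 2, which gave it 0.89 TPM there. The coding transcripts of Wnt5a were at 2.52 TPM in replicate 1 and 2.07 TPM in replicate 2. For Fzd3, 4.66 counts assigned to the 426-base Fzd3-201 in replicate 2 made up 0.45 of its 1.55 TPM, and the coding transcript was at 1.18 and 1.11 TPM. In that quantification these were the only detected genes with a higher TPM in replicate 2. For both, the coding transcripts were lower in replicate 2. In the second quantification Wnt5a-204 and Fzd3-201 received 0 TPM, yet both genes were higher in replicate 2. Wnt5a was at 4.35 and 4.71 TPM there, and the coding Fzd3-202 at 1.35 and 1.42 TPM. Of the coding Wnt5a transcripts, Wnt5a-201 was at 1.82 and 1.94 TPM and Wnt5a-202 at 1.48 and 1.46 TPM. In Wnt5b the counts fell on different transcripts in the libraries. Wnt5b-204 held 70.1% of the TPM in replicate 1 and 0% in replicate 2, where Wnt5b-203 took 100%. These transcripts are 2371 and 2339 bases long, and in the other deposited quantification Wnt5b-203 received 0 TPM and Wnt5b-204 led in both libraries, so the split between them is uncertain. Lrp5-201 and Lrp6-201, both coding, led with mean shares of 85.3% and 75.0%.

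**Figure D3:**
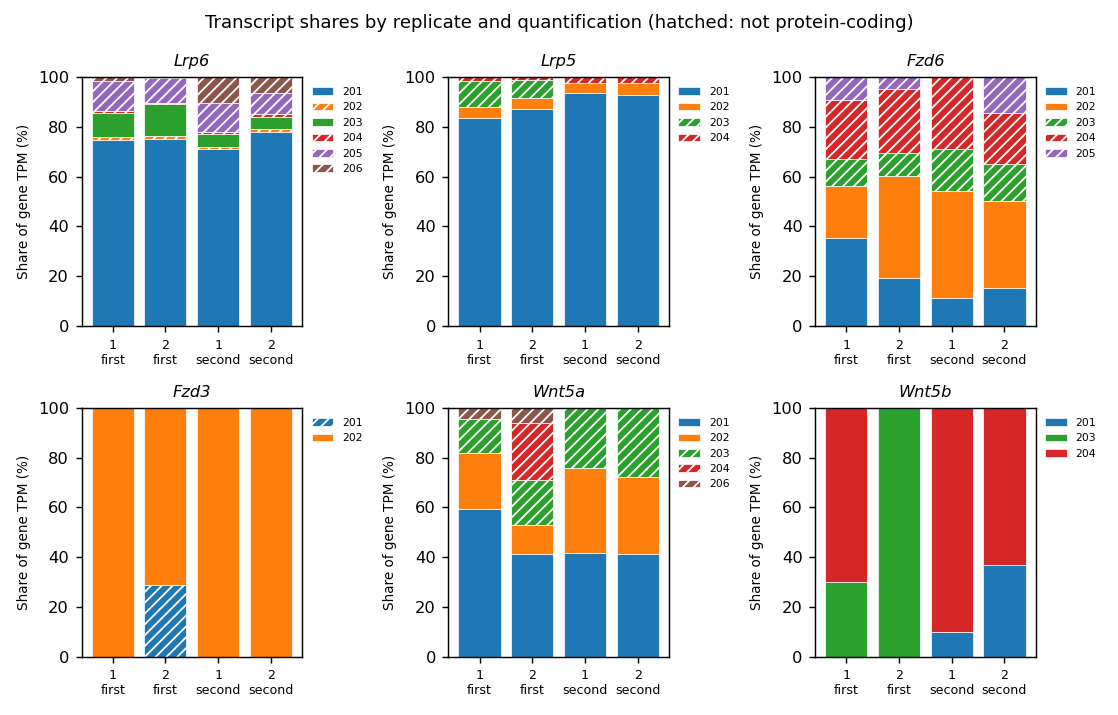
Share of each annotated transcript in the TPM of its gene (percent) for 6 genes, in replicates 1 and 2 and in both deposited quantifications (first and second); hatched parts are not protein-coding, and transcripts below 1% in every bar are left out. Lrp5 and Lrp6 were led by the same transcript in all 4 bars, while Fzd6 was split and Wnt5b changed between Wnt5b-203 and Wnt5b-204.

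The libraries were then set against each other by counts, scaled by the TMM method, as the log2 ratio of replicate 2 over replicate 1. Each ratio has an exact 95% interval (Clopper-Pearson). It covers counting error and no other source, and PCR copies cannot be separated from molecules here. On this scale the median over all 13213 genes with a mean count of at least 50 was 0.01, whereas the median TPM ratio of such genes was -0.21, so lower TPM values in replicate 2 were common to most genes. Of the 17 members at that count, 1 was over 2-fold lower in replicate 2, against 0.984% of the genes measured, and 0 were over 2-fold higher, against 0.802% (1.79% either way). The single gene was Dkk3, at a log2 ratio of -1.33 (interval -1.43 to -1.23), a 2.51-fold difference. For the other 16 the ratios lay between -0.54 (Wnt9b) and 0.17 (Fzd4).

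Most members lay slightly below 0. Of the 17, 13 were below 0, against 48.7% of all genes measured, with a median of -0.12. The interval left out equality and lay lower for 4 members (Dkk3, Sfrp1, Sfrp2 and Fzd7), against 20.5% of genes, and higher for 2 (Fzd4 and Lrp6), against 22.3%. These calls depended on the quantification. In the second, the intervals of Wnt9b (-1.48 to -0.32), Fzd1 (-0.29 to -0.010), Fzd2 (-0.39 to -0.007) and Fzd8 (-0.36 to -0.003) also lay below 0. The share over all genes is not given for it. Fzd7 was at -0.39 (interval -0.63 to -0.15), Sfrp2 at -0.20 (-0.36 to -0.04) and Sfrp1 at -0.17 (-0.31 to -0.04), while Fzd4 was at 0.17 (0.10 to 0.23) and Lrp6 at 0.11 (0.06 to 0.17). The median absolute log2 ratio was 0.13 over these members and 0.14 over all genes measured. The 3 detected ligands showed no difference beyond counting error, with Wnt5a at 0.09 (-0.09 to 0.28), Wnt9a at -0.01 (-0.28 to 0.25) and Wnt5b at -0.13 (-0.48 to 0.22).

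Below that count the clearest difference was that of Sfrp5. Its 52 and 8 counts gave a log2 ratio of -2.49 (interval -3.84 to -1.48), a 5.60-fold difference. The intervals of Wnt2b (-1.01, -2.02 to -0.12), Wnt11 (-0.76, -1.52 to -0.06) and Wnt6 (-2.06, -5.53 to -0.12) also lay below 0, with wide limits. In the second quantification the interval of Wnt6 reached 0.02. The differences of Dkk3 and Sfrp5 went in the same direction as those of several marker lists. In replicate 2, 5 of 6 atrial, 5 of 7 adipocyte, 3 of 8 Schwann cell and neuronal and 1 of 8 mesothelial markers were over 2-fold lower. The share over all genes with a mean count of at least 50 was 0.984%. The mesothelial markers summed to 42.9 TPM in replicate 1 and 22.7 TPM in replicate 2 (median log2 ratio -0.85, 7 of 8 below 0). The 8 fibroblast markers summed to 1840 and 1165 TPM with a median log2 ratio of -0.37. The 6 macrophage markers summed to 55.0 and 34.6 TPM (median -0.44, 6 of 6 below 0) and the 8 mural cell markers to 611 and 468 TPM (median -0.22, 5 of 8 below 0). Cardiomyocyte and endothelial markers had medians of 0.18 and -0.07. All atrial and adipocyte markers gave counts in at least 1 library. The part of these cells in the Dkk3 and Sfrp5 differences was not tested.

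**Figure D4:**
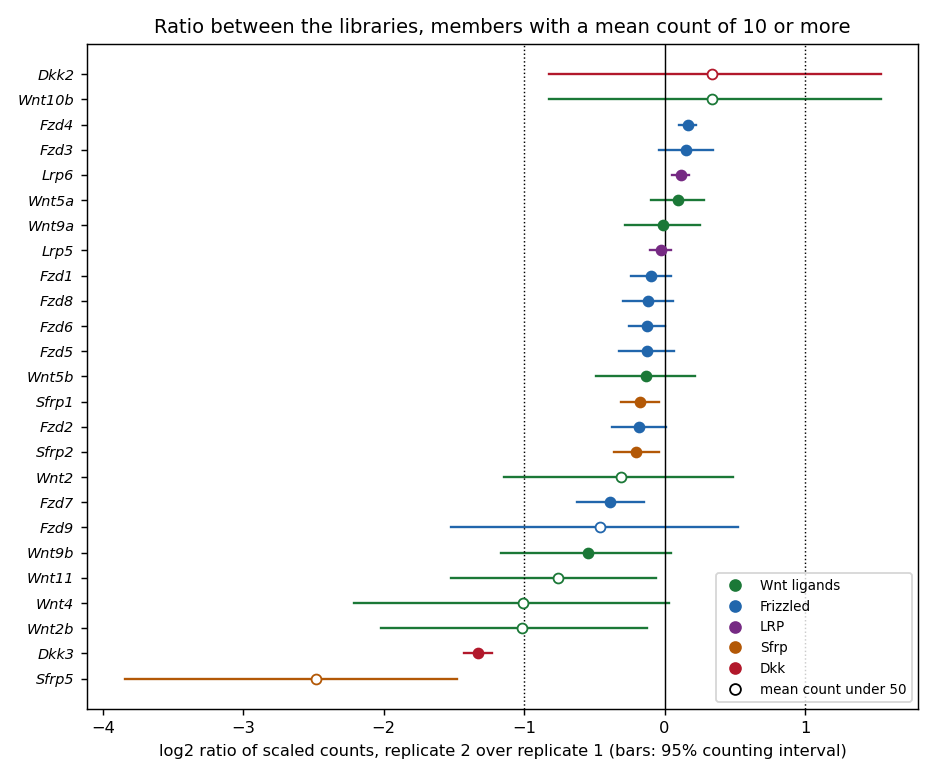
Log2 ratio of scaled counts, replicate 2 over replicate 1, for the 25 genes with a mean count of at least 10, with exact 95% counting intervals as bars and dotted lines at a 2-fold difference; open points have a mean count under 50. Dkk3 (-1.33) and Sfrp5 (-2.49) lay beyond the 2-fold line with their whole interval, and most others lay near 0.

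Promoters of the Sfrp pair that behaved differently are given next. Sfrp2 was detected in both libraries with a small difference, and Sfrp5 was the member with the widest difference, at low counts. The sequences are the 250 bases before the RefSeq start (GRCm38.p6, 5′ to 3′, CpG in capitals): chr3:83766071-83766320, plus strand, for Sfrp2 and chr19:42202253-42202502, minus strand, for Sfrp5.
Sfrp2: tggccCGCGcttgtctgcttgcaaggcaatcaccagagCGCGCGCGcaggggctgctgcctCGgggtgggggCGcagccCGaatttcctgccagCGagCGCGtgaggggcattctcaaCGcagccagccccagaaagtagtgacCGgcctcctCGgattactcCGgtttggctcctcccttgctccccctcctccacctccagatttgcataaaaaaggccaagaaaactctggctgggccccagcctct
Sfrp5: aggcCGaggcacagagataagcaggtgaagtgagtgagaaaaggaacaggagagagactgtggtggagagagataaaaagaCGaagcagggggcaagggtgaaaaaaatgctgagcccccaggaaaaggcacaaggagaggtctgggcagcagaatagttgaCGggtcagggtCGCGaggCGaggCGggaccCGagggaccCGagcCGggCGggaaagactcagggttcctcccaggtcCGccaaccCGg
They held 16 and 13 CpG, far fewer than the Wnt9a and Wnt3a stretches, with a G and C content of 63.6% and 59.6%. A window of 300 bases (250 before and 50 after the start) was found in RefSeq for 25 of the 39 genes, in 28 windows. No window was used for Dkk3, Dkk4, Fzd2, Fzd3, Fzd6, Fzd8, Lrp5, Lrp6, Sfrp1, Sfrp4, Wnt5a, Wnt7b, Wnt8a and Wnt10a.

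Promoters of this family were rich in CpG whether or not the gene was detected. The ratio of observed to expected CpG was over 0.6 in 21 of 28 member windows (75.0%), against 35.8% of all 32851 windows. The latter came from 27025 genes, more than the 22028 protein-coding genes, whereas all members are protein-coding. It was over 0.6 in 7 of the 9 windows of detected genes and in 14 of the 19 windows of genes below 1 TPM, and its median was 0.75 in both sets. Wnt4 (0.98), Wnt7a (0.97) and Fzd9 (1.18) were high in CpG and below 1 TPM. Low ratios were found for Dkk1 (0.33) and Wnt8b (0.35), which were near 0 in level, but also for 2 of the 3 windows of the detected Wnt5b (0.31 and 0.19). The letters TATAAA, on either strand, occurred in 4 of 28 windows (14.3%), those of Dkk1, Dkk2, Fzd1 and Wnt11, against 13.6% of all windows. The letters CTTTGAT or CTTTGAA, a form of the sequence bound by TCF and LEF factors, occurred on either strand in 3 windows (10.7%), those of Wnt11, Wnt5b and Dkk1, against 8.65%. These matches are a description of the letters and not of binding.

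**Figure D5:**
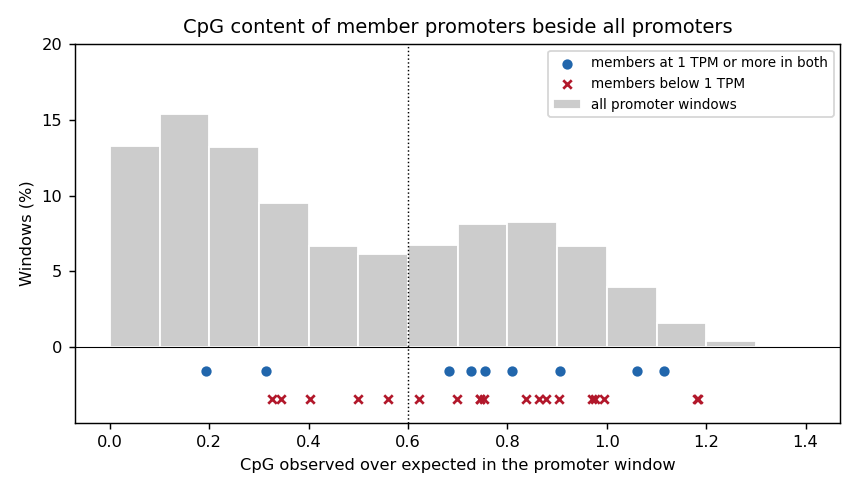
Ratio of observed to expected CpG in promoter windows: grey bars give the percent of all 32851 windows in each bin, and marks below the zero line (their height carries no value) give the member windows of genes detected at 1 TPM in both libraries (circles) and of genes below it (crosses). The dotted line marks 0.6, above which lay 7 of 9 and 14 of 19 member windows.

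The rest of the pathway was largely present. Of 74 further genes in 8 lists, 55 were detected, against 52.4% of protein-coding genes. Of the 57 with a mean count of at least 50, 0 were over 2-fold different between the libraries, against 1.79% of all genes measured. The median log2 ratio of these 57 was -0.05, with 18 intervals lower and 13 higher, against 20.5% and 22.3% of all genes measured. Of the genes for Wnt secretion 1 of 3 was detected: Wls, the carrier of Wnt proteins to the cell surface, at 32.5 and 26.8 TPM. Porcn, which attaches the lipid, was at 0.99 and 0.71 TPM, and Notum, which removes it, at 0.08 and 0.02 TPM.

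Extracellular modulators were mixed. Among R-spondins and their receptors 3 of 9 were detected: Lgr4 at 14.3 and 12.8 TPM, Lgr6 at 7.26 and 5.14 TPM and the ubiquitin ligase Znrf3, which removes Frizzled from the surface, at 4.98 and 5.67 TPM. The R-spondin ligands themselves were low. Rspo1, named after its values were seen, had 66 and 24 counts and a log2 ratio of -1.30 (interval -2.06 to -0.62), at a mean count under 50. Of other inhibitors 4 of 9 were detected, led by the Dkk receptor Kremen1 (30.7 and 25.7 TPM), Apcdd1 (3.57 and 2.38 TPM) and Frzb (2.98 and 2.16 TPM). Kremen1 was thus present while the Dickkopf genes that bind it, Dkk1, Dkk2 and Dkk4, had at most 15 counts in any library.

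Alternative receptors and planar polarity genes were detected for 12 of 13 members, led by the formin Daam1 (29.5 and 28.0 TPM), the receptor Ryk (18.3 and 17.1 TPM) and Vangl1 (10.6 and 9.68 TPM). Of a mixed list of Norrin, Tspan12, Adgra2, Reck and the glypicans Gpc3, Gpc4 and Gpc6, 6 of 7 genes were detected. Tspan12, which assists Fzd4, was at 39.2 and 30.9 TPM. Gpc4 was at 21.5 and 17.7 TPM and Gpc3 at 21.8 and 12.2 TPM. The Norrin gene itself, Ndp, had 1 and 7 counts. All 6 measured genes of this list lay below 0 in log2 ratio, against 48.7% of all genes measured, with a median of -0.27. The interval left out equality and lay lower for 5 of them, against 20.5% of genes. The fibroblast marker list, at -0.37, lay in the same direction, and its part was not tested.

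Inside the cell, Dishevelled and the destruction complex were detected for 12 of 13 genes, led by the kinases Csnk1a1 (136.8 and 113 TPM) and Gsk3a (30.1 and 23.7 TPM) and by Apc (28.0 and 25.0 TPM). Beta-catenin, Ctnnb1, was at 261 and 222 TPM, and its partners Bcl9l at 30.5 and 24.8 TPM and Bcl9 at 11.2 and 12.0 TPM. In that list 12 of 13 genes were detected, the exception being Lef1 with 37 and 23 counts. Feedback and target genes were detected for 7 of 14 members, with the cell cycle gene Ccnd1 at 37.5 and 26.5 TPM and Myc at 3.75 and 3.87 TPM. Ccnd1 and Myc are also driven by many other signals. Axin2, the most commonly used readout of canonical signalling, had 146 and 96 counts (log2 ratio -0.46, interval -0.85 to -0.08). It was at 2.52 TPM in replicate 1 and 0.94 TPM in replicate 2. The scaled counts of Axin2 were 1.38-fold higher in replicate 1, a smaller difference than in TPM, and its transcript shares were not examined. Of the other undetected feedback genes, Nkd2 had 118 and 73 counts and Rnf43 10 and 12, while Sp5, Notum and Lgr5 had at most 5 in either library.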

How the data were processed

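Expression was measured in 2 heart libraries of 1 group. Per the deposited notes, the authors quantified reads on mm10 with GENCODE M21, once from transcriptome alignments and once directly from reads; neither the programs nor the use of strand is named in the sources. The deposited tables hold expected counts (not whole numbers), TPM and FPKM, the latter used as an alternative. mm10 is a B6 genome, and the effect of CAST differences on the counts was not tested. Opposite-strand genes share exon bases with 6 members, and the highest such partner had 11 counts.

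Expected counts were rounded, scaled by TMM (edgeR 4.0.16) and increased by 0.5; intervals came from scipy 1.17.1. The call over 2-fold needed 50 counts on average, a ratio beyond 2-fold, and an interval without 1. Rows naming no gene held 3.89 and 3 counts and were left out. DESeq2 1.42.0 size factors, totals and spike-ins were alternatives. The ratio and interval were run on simulated data with counting error only and known scaling, so that run covers no other source of error. Members were those of the symbol rule; each member at 1 TPM in both or over 2-fold was named with its values, the rest by counts, and of each list the 3 highest genes. Other named genes (Porcn, Notum, Rspo1, Ndp, Lef1, Axin2, Sp5, Lgr5, Nkd1, Nkd2, Bambi, Tnfrsf19, Rnf43, single promoters) were chosen after their values were seen. The members and lists were chosen with earlier results of these data known. Protein identity was not computed here.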

Additional observations from a re-analysis of the deposited data

How the results depend on the processing

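The number of detected members was 16, and it was 12 at 2 TPM, 17 at 0.5 TPM, 17 in the second quantification, 15 with FPKM, 24 at 10 counts in both libraries, and 16 with coding transcripts only, an alternative chosen after seeing the data. From a single library it was 16 or 17. The count of members over 2-fold was 1 (Dkk3) under DESeq2 size factors, total counts, the spike-in sum, the second quantification and a 1.5-fold limit. It was 3 at a mean count of at least 10, with Sfrp5 and Wnt2b added, and 4 with no minimum, with Wnt6 added. The share over all genes at these lower minima is not given, so whether 3 or 4 is unusual was not tested. The log2 ratio of Dkk3 ranged from -1.43 to -1.33 over these settings. The median ratio of the 25 members with at least 10 counts was -0.13 and lay between -0.24 (total counts) and -0.12 (50 counts) in the alternatives. The Sfrp share of 12.9% was 13.5% in the second quantification and 14.1% with coding transcripts only; from a single library the shares ranged from 6.73% to 8.09% (Wnt), 34.5% to 38.9% (Frizzled), 26.2% to 31.1% (LRP), 12.8% to 13.1% (Sfrp) and 9.06% to 19.5% (Dkk). Detected genes with a leading transcript under 50% numbered 2 in the second quantification, Fzd6 and Wnt5a. All 16 levels were higher in the second quantification, 11 of them by more than 1 SD, as were most genes: the median log2 ratio of second over first was 0.32 and 0.46 over all genes compared, and 0.21 and 0.33 over these members. With coding transcripts only, Wnt5a (2.30 TPM) was below Wnt9a (2.34 TPM) in the first quantification, but not in the second. The median ratio has no value from a single library. No paired analysis was possible because there was only 1 group. Depth limits the genes with under 50 counts, whose intervals span about 2-fold or more.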

Other observations

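A few scarce members received more reads in the second quantification than in the first. Wnt4 had 25 and 11 expected counts in the first and 42.4 and 29.6 estimated counts in the second, Sfrp4 12 and 5 against 27.2 and 13.1, and Dkk1 1 and 1 against 5.85 and 2.02. Dkk4, at 0 in the first, had 3 and 4 estimated counts in the second, which gave 0.11 and 0.15 TPM. Wnt11 was at 1.34 TPM in both libraries there and would pass 1 TPM, although its counts, 50 and 26, were nearly those of the first. The 634-base Wnt11-203 held 10.5% of its TPM in replicate 1 and 62.2% in replicate 2 there. None of the other undetected members reached 1 TPM in both libraries in the second quantification.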
